A study of Mus musculus with 12 samples.

Results

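The Notch receptors and their ligands were followed across 4 cell types sorted from the mouse embryo at stage E7.25. The set is the 9 mouse genes of the family, named by symbol and not by their values: the 4 receptors Notch1, Notch2, Notch3 and Notch4, the 3 Delta-like ligands Dll1, Dll3 and Dll4, and the 2 Jagged ligands Jag1 and Jag2. Each of the 9 was found once among the 38924 genes counted. Of these, 7 were abundant enough to be tested, and Dll4 and Jag2 were not.

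Notch signalling passes between touching cells. A ligand on one cell binds a receptor on its neighbour, the receptor is cut by ADAM proteases and then by gamma-secretase, and the freed intracellular part enters the nucleus and joins the DNA-binding protein RBPJ to turn on targets such as the Hes and Hey genes. Dll1, Dll4, Jag1 and Jag2 activate receptors on neighbouring cells, while Dll3 is known mainly as an inhibitor that acts within the cell that makes it. In the gastrulating embryo the pathway is known for its part in somite formation, in vessel and blood development and in the choice between mesodermal fates.

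All cells came from the Foxa2Cre:Rosa26-YFP line, in which a recombinase driven from Foxa2 switches on a yellow fluorescent protein, which marks cells that have expressed Foxa2 and their descendants. The groups, each of 3 libraries, with no treatment named, were marked (YFP+) cardiac mesoderm, named ventricular in the labels, unmarked (YFP-) cardiac mesoderm, named non-ventricular, endoderm sorted on EPCAM and hematopoietic mesoderm sorted on KDR. The comparisons asked where the family is expressed among the mesoderm types and the endoderm, in a study on Notch activation and commitment to the cardiac lineage. The labels do not say whether the replicates came from separate embryos or litters, so the p-values measure only the spread between these libraries. In bulk libraries, fewer cells of a type and less RNA per cell cannot be told apart.

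Levels are CPM, the library-scaled counts after TMM normalization, and gene counts ranged from 4472800 to 7888631 per library. Genes with a count numbered 18547 to 18618 in the endoderm libraries and 12484 to 14491 in those of hematopoietic mesoderm. They numbered 13671 to 14677 in YFP+ and 15356 to 16078 in YFP- cardiac mesoderm. The part of this difference in low or absent levels was not tested. Kdr averaged 777 ± 164 CPM (SD, n = 3) in hematopoietic mesoderm, 540 ± 74.9 and 491 ± 48.4 in YFP+ and YFP- cardiac mesoderm and 10.4 ± 5.81 in endoderm. Epcam averaged 220 ± 18.5 CPM in endoderm and 22.5 to 34.9 in the other types, and hematopoietic mesoderm ranged from 1.04 to 68.9. Foxa2, the driver of the lineage mark, averaged 57.8 ± 5.05 CPM in endoderm and had 0 counts in every YFP- library and 2, 0 and 32 counts in the YFP+ ones. A list of 5 node and notochord genes summed to 224 to 429 CPM in the endoderm libraries and to at most 2.59 in any other, with Noto, Foxj1 and Shh at 0 in YFP- cardiac mesoderm. The sums of 5 visceral endoderm genes were 1160 to 2928 CPM in endoderm and at most 60.1 elsewhere, and those of 5 epiblast genes 179 to 242 and at most 72.9. The part of these cells in the endoderm levels of the family was not tested. The library of hematopoietic mesoderm replicate 3 stood apart from the other 2 of its type, as described below. Several results that rest on it are given with and without it.

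Coordinates are from GENCODE, build GRCm38. Notch1 (ENSMUSG00000026923.9) is at chr2:26457903-26516663 on the minus strand, Notch2 (ENSMUSG00000027878.10) at chr3:98013527-98150361 on the plus strand, Notch3 (ENSMUSG00000038146.7) at chr17:32120820-32166852 on the minus strand and Notch4 (ENSMUSG00000015468.8) at chr17:34564268-34588503 on the plus strand. Dll1 (ENSMUSG00000014773.7) is at chr17:15367354-15376872 on the minus strand, Dll3 (ENSMUSG00000003436.11) at chr7:28293553-28302238 on the minus strand and Dll4 (ENSMUSG00000027314.6) at chr2:119325784-119335962 on the plus strand. Jag1 (ENSMUSG00000027276.7) is at chr2:137081456-137116644 and Jag2 (ENSMUSG00000002799.5) at chr12:112907819-112929776, both on the minus strand. Exons of 5 members overlap those of another gene, and whether the counting used strand is not given in the sources used here. The widest overlap is in Dll1, where 20.6% of the exonic bases are shared with A930024N18Rik on the opposite strand. That gene had 575, 0 and 67 counts in the YFP+ libraries and 61, 2 and 27 in the YFP- ones. Without strand, reads of the pair cannot be told apart in the shared stretch, so the Dll1 level is uncertain by that part.

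The bases just before the start sites of Dll1, Dll3 and Notch1 are shown because these 3 genes carry the differences that passed the test against more than 1 type. Each line gives the 30 bases before a RefSeq start (build GRCm38.p6), 5′ to 3′ on the gene's own strand, and Dll1 has 2 listed starts. Capitals mark the letters TATAA, the core of a TATA box, a motif chosen after the sequences were seen.
Dll3, chr7:28301786-28301815, minus strand: aaaTATAAgactccggcatccagcagctgc
Dll1, first listed start, chr17:15375824-15375853, minus strand: attggctgaattcttgaggaagacgcgagg
Dll1, second listed start, chr17:15376933-15376962, minus strand: cagagggaggcctgaggggaatacccagga
Notch1, chr2:26503823-26503852, minus strand: ggcggagcgcccgcccgctcagagcctcac
TATAA stands in this window in 1 of the 10 listed promoters of the 9 genes, that of Dll3, and in 2.97% of all 32851 promoters of the table. In the wider window of 300 bases (250 before to 50 after the start), the letters TGGGAA (core of the RBPJ site), GGTGTGA (T-box core) and CCGGAA (ETS core) were looked for on both strands. They were in 25.6%, 3.98% and 14.9% of all promoters and in 0 of the 10 promoters of the family. GC content of these windows ranged from 52.0% in Dll3 to 86.0% in Jag2, and the median over all promoters was 52.7%.

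**Figure D1:**
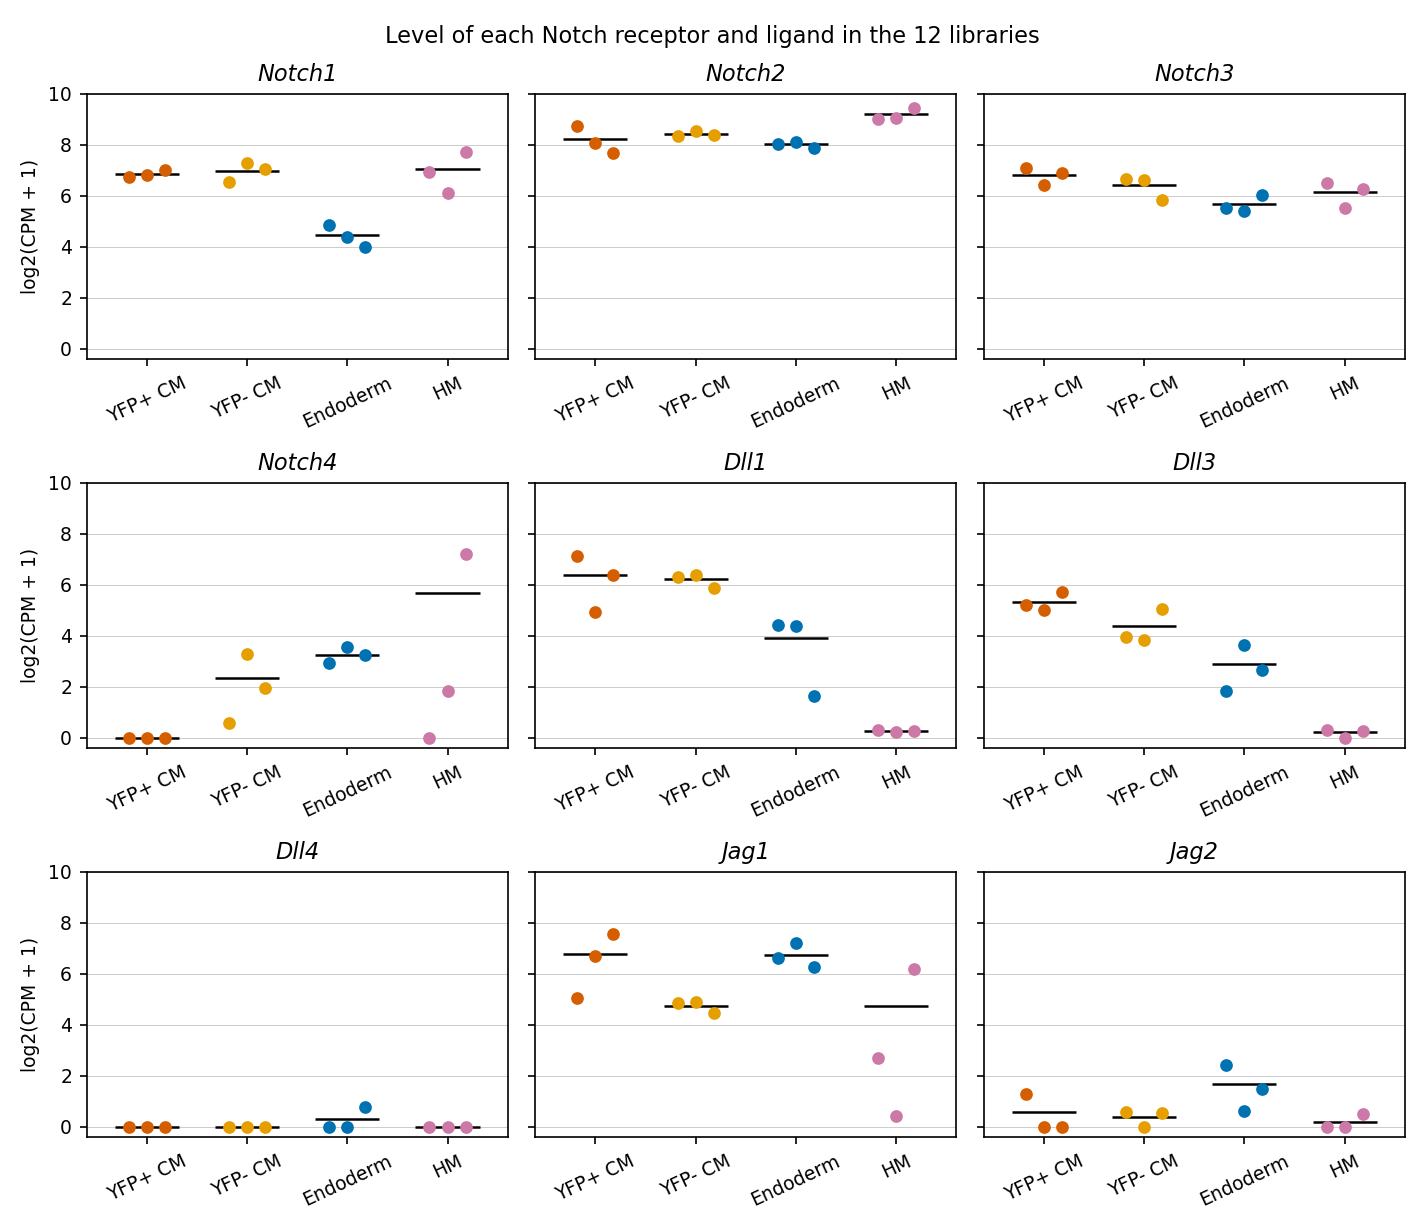
Level of each Notch receptor and ligand in the 12 libraries, as log2(CPM + 1) on the vertical axis, with YFP+ and YFP- cardiac mesoderm (CM), endoderm and hematopoietic mesoderm (HM) on the horizontal axis. Points are libraries in the order of replicates 1 to 3 and bars are the log2 of the type mean plus 1. Notch1 is lowest in all 3 endoderm libraries, Dll1 and Dll3 lie at the bottom of the scale in all 3 hematopoietic mesoderm libraries, and Notch4 is at 0 in all 3 YFP+ libraries.

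Notch1, the receptor best known from cardiac and vascular development, was a mesoderm receptor in these data. It stood at 106, 111 and 128 CPM in replicates 1, 2 and 3 of YFP+ cardiac mesoderm, at 90.5, 152 and 131 in the YFP- fraction and at 119, 67.5 and 206 in hematopoietic mesoderm. In endoderm it stood at 27.7, 19.6 and 14.7 CPM. Every endoderm library was below every mesoderm library, and the 3 mesoderm types overlapped one another. Against endoderm (20.7 ± 6.54 CPM, SD, n = 3), the log2 fold change was 2.48 ± 0.43 (SE) in YFP+ cells (edgeR adjusted p = 0.0111) and 2.59 ± 0.43 in YFP- cells (0.00889). Endoderm was lower than hematopoietic mesoderm by the same measure (log2 fold change -2.67 ± 0.43, edgeR adjusted p = 0.00482), and this call passed under all 13 alternatives run. The calls in the YFP+ and YFP- fractions were lost without endoderm replicate 2 (edgeR adjusted p = 0.0785 and 0.0606) or replicate 3 (0.0851 and 0.0707), with log2 fold changes of 2.25 to 2.54.

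Notch2, a receptor expressed widely in embryonic tissues, had the most reads of the family in every type. Its values were 422, 267 and 201 CPM in YFP+ cardiac mesoderm, 326, 364 and 334 in the YFP- fraction, 262, 270 and 234 in endoderm and 514, 524 and 698 in hematopoietic mesoderm. All 3 hematopoietic mesoderm libraries lay above the other 9, and the other types lay close together. Hematopoietic mesoderm averaged 579 ± 103 CPM against 255 ± 18.6 in endoderm, and the log2 fold change of endoderm was -1.18 ± 0.23 (edgeR adjusted p = 0.0133). That call was lost without any 1 endoderm library (edgeR adjusted p = 0.0614 to 0.0805). The differences of the cardiac mesoderm fractions from hematopoietic mesoderm did not pass, at -0.96 ± 0.23 in YFP+ cells (edgeR adjusted p = 0.0535) and -0.76 ± 0.23 in YFP- cells (0.138). The first of these passed without YFP+ replicate 1, the highest of that fraction (-1.30, edgeR adjusted p = 0.0115), with no expression filter (edgeR adjusted p = 0.0273) and with a minimum mean of 5 CPM (0.0420). DESeq2 called both (adjusted p = 0.00256 and 0.0324), and neither passed in the other alternatives.

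Notch3, known from vascular smooth muscle and pericytes, was present in every library. It stood at 134, 83.8 and 118 CPM in the YFP+ fraction, 99.04, 97.7 and 55.6 in the YFP- fraction, 44.9, 40.7 and 64.1 in endoderm and 89.6, 44.3 and 75.8 in hematopoietic mesoderm. The YFP+ libraries were all above the endoderm libraries, and neighbouring types in the order of means overlapped. No comparison of Notch3 passed, and its log2 fold change between the YFP+ fraction and endoderm was 1.17 ± 0.40 (edgeR adjusted p = 0.156).

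Notch4, known for expression in endothelium, was the least even receptor. It had 0 counts in each of the 3 YFP+ libraries, where a count of 0 allows up to 3 counts per library by counting error alone. In the YFP- fraction it had 3, 63 and 20 counts, or 0.503, 8.83 and 2.90 CPM. In endoderm it had 41, 82 and 72 counts, or 6.52, 10.6 and 8.56 CPM, the most even values of any type that expressed it. In hematopoietic mesoderm it had 0, 15 and 702 counts, and the 147 CPM of replicate 3 was above every other library. By the means, the YFP+ fraction was at least 7.08-fold lower than the YFP- fraction and at least 14.9-fold lower than endoderm, with 3 counts per library as the floor, and neither difference passed (edgeR adjusted p = 0.626 and 0.150). These bounds cover counting error only and not the spread between libraries: YFP- replicate 1, with 3 counts, was itself at the floor. The difference between the YFP+ fraction and hematopoietic mesoderm did not pass either (edgeR adjusted p = 0.0867), but it passed without hematopoietic mesoderm replicate 1, in which Notch4 had 0 counts (edgeR adjusted p = 0.0419), and with no expression filter (0.0285). Of the 717 Notch4 counts in hematopoietic mesoderm, 702 came from replicate 3, and without that library the difference did not pass (edgeR adjusted p = 0.171). For the YFP- fraction against hematopoietic mesoderm, the Notch4 log2 fold change was -3.61 with all libraries. It ran from -4.85 to 1.62 over the 13 alternatives and passed in none.

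Dll1, the Delta-like ligand known from presomitic mesoderm, was near absent from hematopoietic mesoderm. It stood at 137, 29.3 and 81.6 CPM in the YFP+ fraction and at 78.3, 82.0 and 57.9 in the YFP- fraction. Endoderm had 20.5, 19.8 and 2.14 CPM, and each hematopoietic mesoderm library had 1 count. The cardiac mesoderm fractions overlapped each other and lay above all endoderm libraries, which in turn lay above all hematopoietic mesoderm libraries. Pooled over libraries, the YFP+ fraction held 394 times the Dll1 level of hematopoietic mesoderm (exact 95% interval 134 to 1912, which covers counting error only), the YFP- fraction 355 times (121 to 1725) and endoderm 65.4 times (22.2 to 319). All 3 comparisons passed, with log2 fold changes of 8.52 ± 1.10 (edgeR adjusted p = 0.00384), 8.33 ± 1.10 (0.00550) and 5.97 ± 1.03 (0.00661), and each call held whichever of the 6 libraries compared was omitted. Each was lost when limma voom weighted the libraries by quality (adjusted p = 0.229, 0.148 and 0.213). Against endoderm, the log2 fold changes of 2.55 ± 0.78 in the YFP+ and 2.36 ± 0.78 in the YFP- fraction did not pass (edgeR adjusted p = 0.118 and 0.201). The first passed with DESeq2 and with limma voom, where 6.51% and 7.97% of all genes did. The second passed only with limma voom, where 12.8% of all genes did. The sum of 5 paraxial mesoderm genes was 157 to 204 CPM in the YFP+ fraction, 188 to 194 in the YFP- fraction, 48.4 to 87.7 in endoderm and 167 to 383 in hematopoietic mesoderm. Most of each sum was Rspo3, at 172 ± 26.1, 178 ± 12.3, 54.9 ± 18.0 and 301 ± 120 CPM in the same order. Meox1 was at 0 in all libraries of both cardiac mesoderm fractions and of hematopoietic mesoderm, Tcf15 in those of the YFP+ fraction and Msgn1 in those of hematopoietic mesoderm, and Msgn1 had 1 count in all in the YFP+ fraction. In the YFP- libraries, however, Msgn1 had 6, 81 and 51 counts. Tbx6 averaged 4.79, 6.67, 5.26 and 1.33 CPM in the YFP+ fraction, the YFP- fraction, endoderm and hematopoietic mesoderm. The part of paraxial mesoderm cells in the Dll1 levels was not tested.

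Dll3, the inhibitory Delta-like protein of the family, had the same order of types. It stood at 35.6, 31.2 and 51.3 CPM in the YFP+ fraction, 14.4, 13.03 and 32.01 in the YFP- fraction and 2.54, 11.3 and 5.23 in endoderm. Hematopoietic mesoderm had 1, 0 and 1 counts. As for Dll1, the 2 cardiac mesoderm fractions overlapped each other, and all of their libraries lay above those of endoderm. The pooled ratio to hematopoietic mesoderm was 290 in the YFP+ fraction (exact 95% interval 79.9 to 2398), 147 in the YFP- fraction (40.4 to 1217) and 48.1 in endoderm (13.1 to 401). The log2 fold changes were 7.92 ± 1.26 (edgeR adjusted p = 0.0101), 6.93 ± 1.22 (0.0283) and 5.29 ± 1.16 (0.0238), and all 3 passed. The call in the YFP+ fraction held whichever library was omitted and was lost when only these 2 types were fitted (edgeR adjusted p = 0.1797). In the YFP- fraction the call was lost with the replicate number as a block (edgeR adjusted p = 0.0646), and without any 1 YFP- library or without hematopoietic mesoderm replicate 1 (edgeR adjusted p = 0.0507 to 0.107). In endoderm it was lost without endoderm replicate 2 or 3 (edgeR adjusted p = 0.0999 and 0.0663). With quality weights in limma voom none of the 3 passed (adjusted p = 0.0856, 0.0755 and 0.0711). Against endoderm, the log2 fold changes of 2.63 ± 0.94 in the YFP+ and 1.64 ± 0.91 in the YFP- fraction did not pass (edgeR adjusted p = 0.178 and 0.666). The first passed with DESeq2 and with limma voom, and the second in none of the 13 alternatives.

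Dll4, the Delta-like ligand of arterial endothelium, was all but undetected. It had 6 counts in endoderm replicate 3 and 0 counts in the other 11 libraries, where a count of 0 allows up to 3 counts, or 0.388 to 0.723 CPM depending on the library. In the KDR-positive hematopoietic mesoderm, which also held the endothelial marker Cdh5 at 101, 160 and 146 CPM, Dll4 thus had 0 counts in all 3 libraries. The limit of 3 counts covers counting error only.

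Jag1, a ligand with known roles in heart and vessel development, was unevenly spread over the replicates of the YFP+ fraction and of hematopoietic mesoderm. It stood at 32.1, 103 and 184 CPM in the YFP+ fraction and at 27.7, 28.4 and 21.1 in the YFP- fraction. Endoderm had 95.6, 148 and 75.6 CPM. Hematopoietic mesoderm had 5.54, 0.346 and 71.2 CPM, from 23, 2 and 339 counts. The 3 YFP+ libraries were all above the 3 YFP- ones, yet the log2 fold change of 2.05 ± 1.13 did not pass (edgeR adjusted p = 0.742), and its 95% interval ran from -0.40 to 4.49. No other comparison of Jag1 passed in the fit of all 4 types. The 3 YFP- libraries also lay below all 3 endoderm libraries (log2 fold change -2.04 ± 1.13, edgeR adjusted p = 0.657). Of the 13 alternatives, this difference passed only in the fit to these 2 types (edgeR adjusted p = 0.00470), where 1360 of 13472 genes passed. Without hematopoietic mesoderm replicate 3, Jag1 was higher than in hematopoietic mesoderm both in endoderm (log2 fold change 5.22, edgeR adjusted p = 0.0153) and in the YFP+ fraction (5.23, edgeR adjusted p = 0.0198). For the YFP- fraction against hematopoietic mesoderm, the Jag1 log2 fold change was 0.0037 with all libraries. It ran from -0.57 to 3.28 over the 13 alternatives and passed in none. Jag2, the other Jagged ligand, had 27, 4 and 15 counts in endoderm and at most 7 in any library of the other types.

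Per kilobase of exon, which allows genes to be compared with each other, Notch2 was the leading receptor in each of the 12 libraries. Its mean level was 27.5, 31.6, 23.7 and 53.7 CPM per kilobase in YFP+ cardiac mesoderm, YFP- cardiac mesoderm, endoderm and hematopoietic mesoderm, or 54.6%, 61.9%, 73.1% and 71.2% of the summed receptor level. Notch3 came second in the cardiac mesoderm fractions (13.9 ± 3.19 and 10.4 ± 3.05 CPM per kilobase) and in endoderm (6.16 ± 1.54), ahead of Notch1 (8.07 ± 0.81, 8.74 ± 2.20 and 1.45 ± 0.46), although in the YFP- fraction the difference was within the spread. In hematopoietic mesoderm Notch1 (9.21 ± 4.92) and Notch3 (8.64 ± 2.87) differed by less than their spread. Notch1 made up 4.48% ± 1.37 of the receptor level in endoderm and 11.4% to 17.1% on average in the mesoderm types. The order of Notch3 and Notch1 in cardiac mesoderm depended on the exon lengths used, 8089 and 14232 bases. In CPM not scaled by length, Notch3 and Notch1 averaged 112 and 115 in the YFP+ fraction and 84.1 and 124 in the YFP- fraction. In endoderm Notch3 was ahead in CPM too, at 49.9 against 20.7.

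The leading ligand was not the same in each type. Dll1 led in the YFP- fraction, with 60.2% ± 10.6 (SD, n = 3) of the summed ligand level, followed by Dll3 at 24.3% ± 13.0 and Jag1 at 15.4% ± 2.39. Jag1 led in every endoderm library, with 72.02% to 82.3%. In the YFP+ fraction no ligand led in all libraries: Jag1 held 10.8%, 49.8% and 45.8% and Dll1 64.1%, 19.5% and 28.1%, while Dll3 held 24.6% to 30.7%. In hematopoietic mesoderm the ligands together summed to 1.09, 0.101 and 12.4 CPM per kilobase, of which Jag1 held 87.0% in replicate 1 and 98.5% in replicate 3, against 28.4 to 28.9 in the YFP- fraction, 35.6 to 68.9 in the YFP+ fraction and 15.8 to 34.1 in endoderm. The receptors summed there to 59.2 to 107 CPM per kilobase, and to 31.7 to 32.7 in endoderm. The hematopoietic mesoderm libraries were thus the lowest of the 12 in summed ligands, and replicates 1 and 3 of them were the highest in summed receptors. These sums are descriptions and were not tested.

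**Figure D2:**
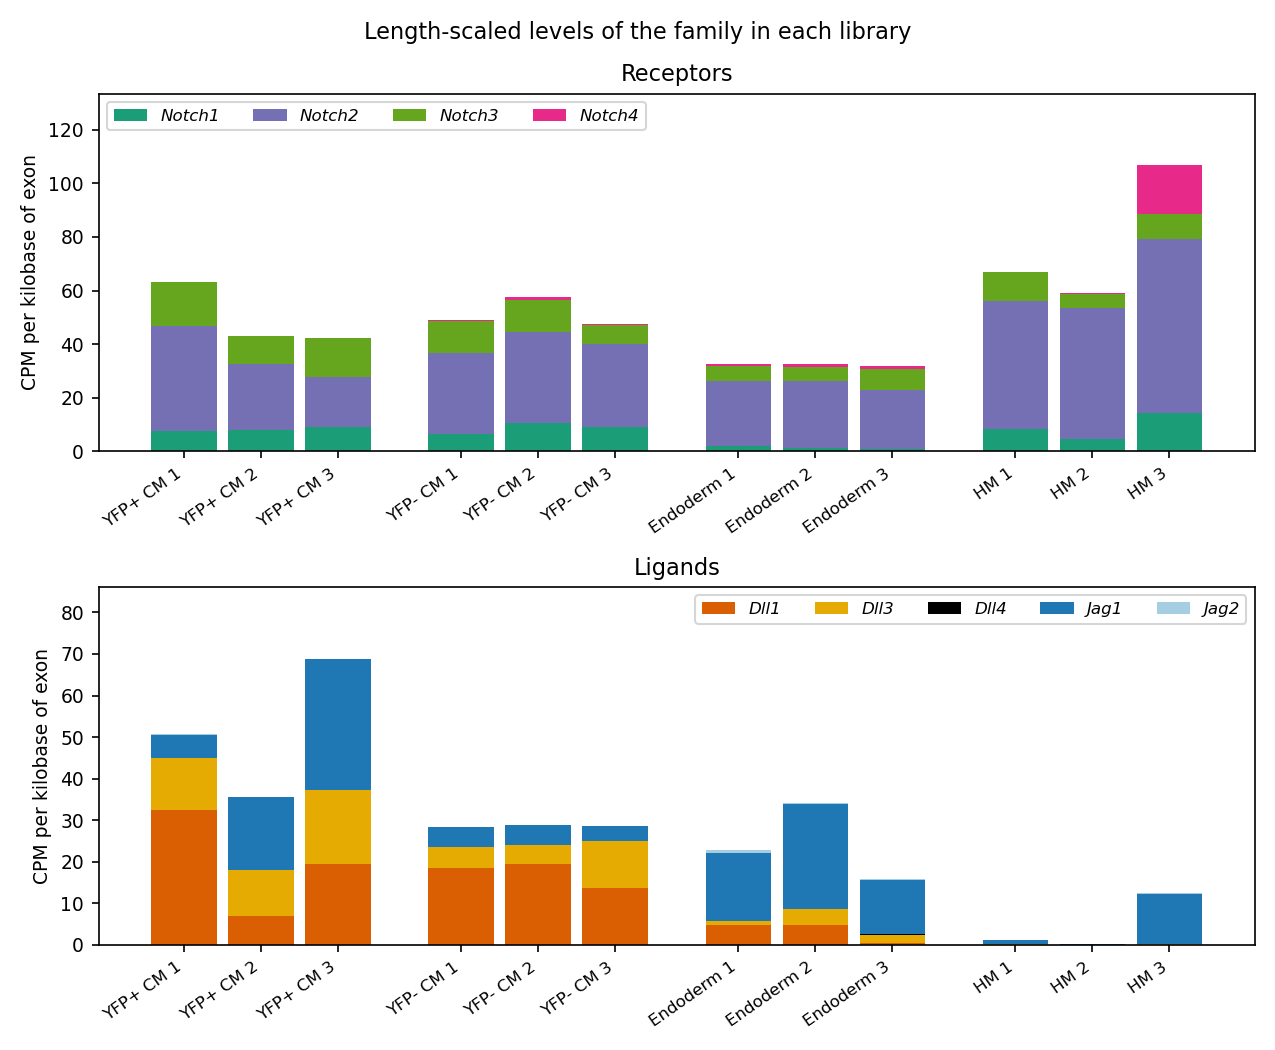
Stacked levels of the 4 receptors (upper panel) and the 5 ligands (lower panel) in each library, in CPM per kilobase of exon on the vertical axis, with the replicate number after each type name (CM, cardiac mesoderm; HM, hematopoietic mesoderm). Notch2 is the widest band of every receptor bar, Jag1 is the widest ligand band in endoderm, Dll1 in the YFP- fraction, and the ligand bars of hematopoietic mesoderm are the lowest of all.

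Between the 2 cardiac mesoderm fractions 0 of the 7 members tested passed, and 0% of all 14170 genes tested did. No gene passed here, so the 0 of 7 is not particular to the family. At an unadjusted p under 0.05 there was 1, Notch4, where 7.49% of all genes were. Libraries did not overlap for 2 of the 7, Notch4 and Jag1, against 12.1% of all genes. The 95% intervals of the log2 fold change of the YFP+ over the YFP- fraction ran from -0.99 to 0.76 for Notch1, -0.69 to 0.29 for Notch2, -0.43 to 1.27 for Notch3, -1.41 to 1.78 for Dll1 and -0.95 to 2.92 for Dll3. Each of these intervals includes 0 and lies around its own estimate, so none is a limit of detection. The smallest difference detectable with 3 libraries a type is not given here. For Notch4 the interval ran from -13.75 to -1.52. Because Notch4 had 0 counts in the YFP+ fraction, its fitted value depends on the prior count and gives no size. DESeq2 called 0 of the 7 members and 115 of all genes (0.812%) in this comparison. Limma voom called 0 of the 7 and 0% of all genes.

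Against endoderm, Notch1 was the 1 member of 7 that passed in the YFP+ fraction, where 1.54% of all genes passed, and 0.953% of all genes passed as higher in the fraction. It was also the 1 of 7 in the YFP- fraction, where 1.31% of all genes passed, and 0.706% of all as higher. Libraries did not overlap for 5 of the 7 members in each of these comparisons, against 30.3% and 29.4% of all genes. The median log2 fold change over the 7 members was 1.17 in the YFP+ and 0.75 in the YFP- fraction, and 0.01 over all genes in both. These comparisons share the endoderm libraries and are not independent of each other.

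Against hematopoietic mesoderm, Dll1 and Dll3 were the 2 of 7 members that passed in the YFP+ fraction (1.79% of all genes, 1.15% as higher) and again in the YFP- fraction (0.593%, 0.402% as higher), and both were higher in cardiac mesoderm. Libraries did not overlap for 3 of the 7 in each comparison, namely Notch2, Dll1 and Dll3, against 14% and 18.6% of all genes. The median log2 fold change over the 7 members was 0.68 and 0.00, against 0.03 and 0.02 over all genes. Between endoderm and hematopoietic mesoderm 4 of the 7 passed, with Dll1 and Dll3 higher and Notch1 and Notch2 lower in endoderm, where 5.65% of all genes passed, 3.23% as higher and 2.42% as lower. Libraries did not overlap for 5 of the 7, against 34.3% of all genes, and the member median was -0.49 against 0.07 over all genes.

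**Figure D3:**
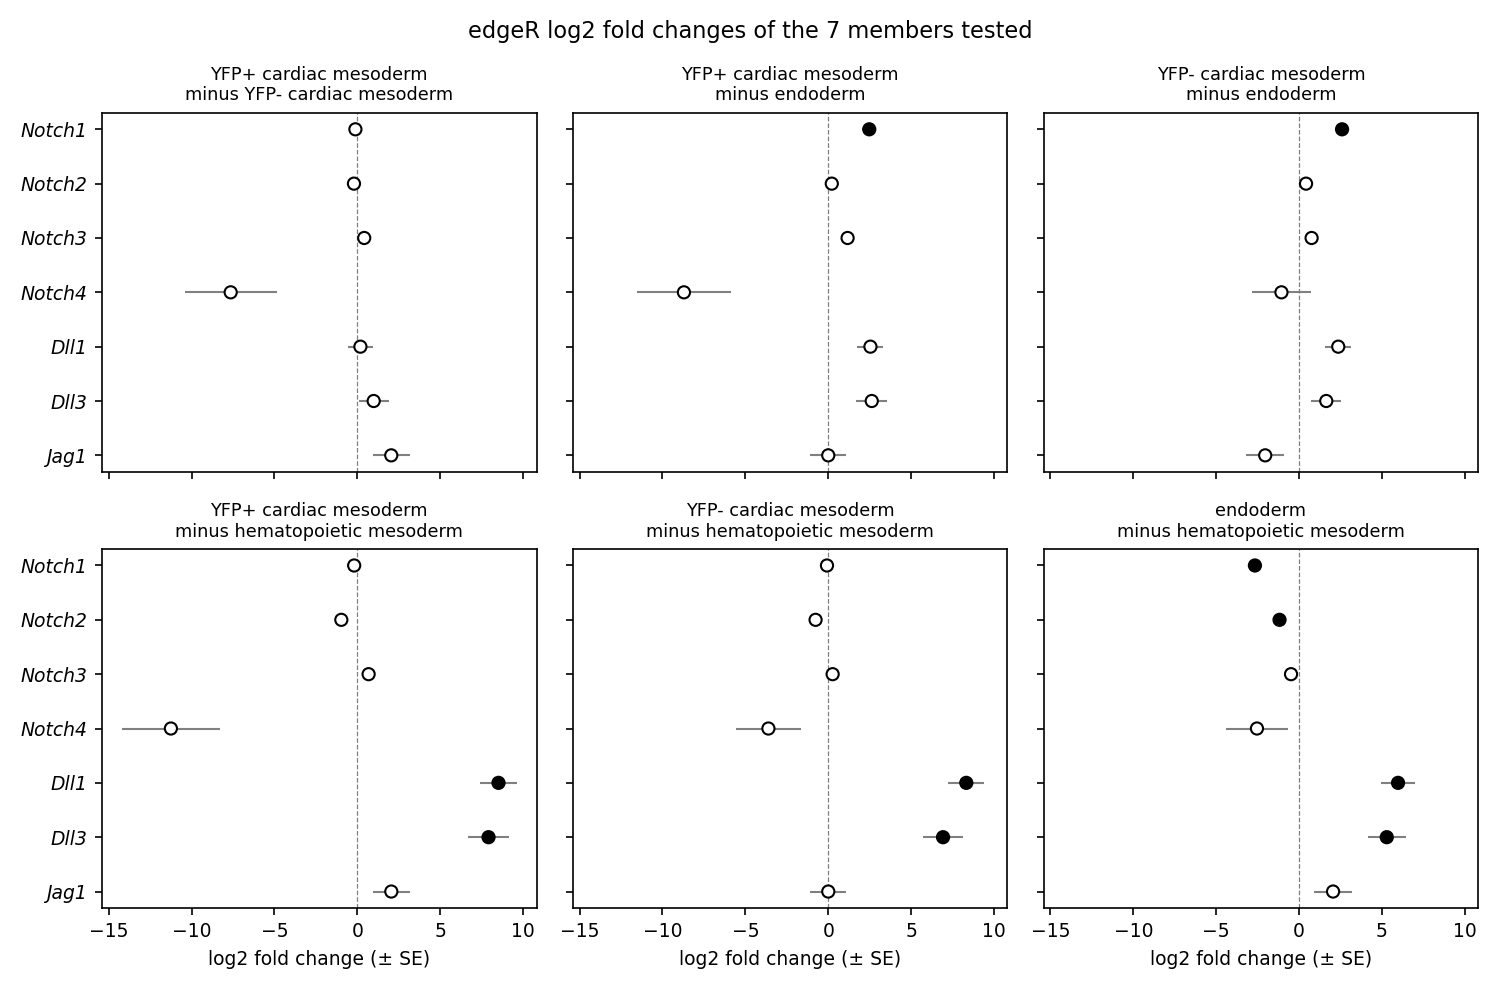
Log2 fold changes (horizontal axis, first type named minus second) of the 7 members tested in the 6 comparisons, with bars of ± 1 SE from the edgeR quasi-likelihood fit. Filled circles passed an adjusted p of 0.05 and open circles did not. Fitted values of Notch4 against the YFP+ fraction, where it had 0 counts, depend on the prior count and give no size. Filled circles stand at Notch1 in the comparisons with endoderm, at Dll1 and Dll3 in those with hematopoietic mesoderm, and at Notch2 between endoderm and hematopoietic mesoderm.

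Replicate 3 of hematopoietic mesoderm held the highest Notch1 (206 CPM), Notch2 (698 CPM) and Notch4 (147 CPM) of its type and the highest Jag1 (71.2 CPM). In the same library the erythroid regulator Gata1 had 1 count and the embryonic globin Hbb-bh1 had 0, against 74.2 and 46.6 CPM of Gata1 and 11.3 and 7.27 CPM of Hbb-bh1 in replicates 1 and 2. The mesoderm gene Hand1 was at 417 CPM there against 47.5 and 81.4, and the primitive streak genes Mixl1 and Eomes at 363 and 264 against 50.8 and 27.9, and 49.4 and 28.2. Kdr, the gene of the sort marker, was at 965 CPM against 665 and 700.

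Over whole lists, the sum of 6 cardiac mesoderm genes was 738 CPM in replicate 3 against 146 and 288 in replicates 1 and 2, and that of 5 streak genes was 1022 against 361 and 293. The 8 hematopoietic and endothelial genes summed to 2048 CPM against 2292 and 2489. Kdr was the largest part of this sum in replicate 3 (965 CPM). Tal1, Lmo2 and Runx1 were lowest there, at 270, 113 and 512 CPM. They stood at 471, 199 and 739 CPM in replicate 1 and at 356, 241 and 949 in replicate 2. Etv2 was highest in replicate 3 (42.6 CPM), and Cdh5 lay between the other libraries. In YFP+ cardiac mesoderm these 3 lists ranged over 1100 to 1228, 509 to 960 and 547 to 935 CPM, in the YFP- fraction over 850 to 1064, 724 to 960 and 572 to 736, and in endoderm over 109 to 174, 606 to 761 and 46.5 to 84.1. None of the cardiac or streak genes was at 0 in all libraries of a type, and Hbb-bh1 was at 0 throughout the YFP- fraction and endoderm. In hematopoietic mesoderm replicate 3 itself, Mesp1 and Tbx5 of the cardiac list had 0 counts, against 1 to 2 in replicates 1 and 2. The cardiac sum of replicate 3 was mostly Hand1 (417 CPM) and Gata4 (255 CPM). The part of these differences in the Notch1, Notch4 and Jag1 values of the library was not tested. Without it, the log2 fold change of Notch1 between endoderm and hematopoietic mesoderm was -2.17 and still passed (edgeR adjusted p = 0.00898), and that of Notch4 turned from -2.54 to 2.68, passing in neither fit (edgeR adjusted p = 0.475 and 0.434).

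**Figure D4:**
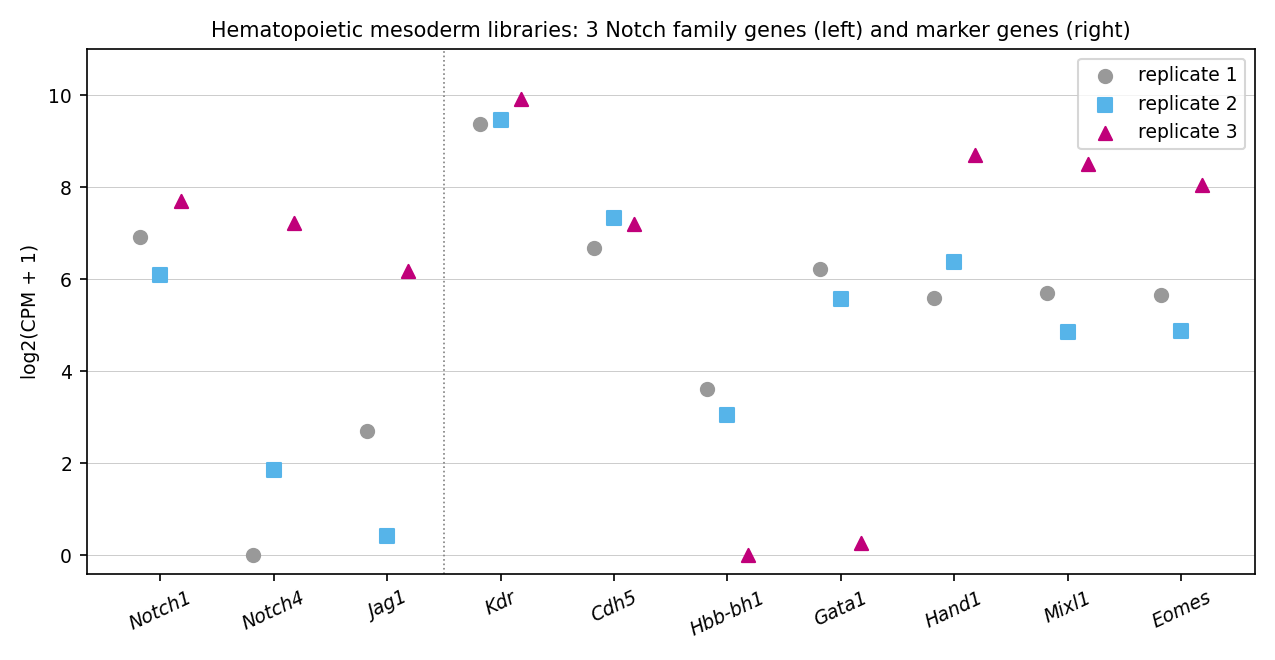
Levels in the 3 hematopoietic mesoderm libraries, as log2(CPM + 1) on the vertical axis, of Notch1, Notch4 and Jag1 (left of the dotted line) and of 7 marker genes (right). Replicate 3 (triangles) is highest in the 3 Notch family genes and in Kdr, Hand1, Mixl1 and Eomes, and lowest in Gata1 and Hbb-bh1.

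Of 40 other genes of the pathway, 35 were tested: glycosyltransferases that modify the receptors, proteases that cut them, ligases that drive ligand endocytosis, the nuclear complex, targets, dampers and non-canonical ligands. Between YFP+ and YFP- cardiac mesoderm, and in the 4 comparisons of these fractions with endoderm and hematopoietic mesoderm, 0 of the 35 passed in edgeR. The counts at an unadjusted p under 0.05 in these 5 comparisons were 4, 5, 7, 6 and 5 of 35, where 7.49%, 15.8%, 10.3%, 19.5% and 17.4% of all genes were. DESeq2 called 1, 1, 4, 0 and 2 of the 35, against 0.812%, 6.51%, 4.27%, 10.6% and 7.63% of all genes. Limma voom called 0, 4, 8, 0 and 0, against 0%, 7.97%, 12.8%, 0.127% and 0.67%. Between endoderm and hematopoietic mesoderm 3 of the 35 passed in edgeR, where 5.65% of all genes did, a share near that of the list. Poglut1, which adds glucose to the receptors' EGF repeats, averaged 80.3 ± 7.68 CPM in endoderm and 176 ± 47.3 in hematopoietic mesoderm (log2 fold change -1.13 ± 0.30, edgeR adjusted p = 0.0435). Mib1, the ubiquitin ligase that ligands need to signal, averaged 341 ± 17.2 and 512 ± 5.27 CPM (-0.59 ± 0.16, edgeR adjusted p = 0.0468). Dtx1, a Deltex protein that regulates Notch receptors, averaged 6.84 ± 3.55 CPM in endoderm and had 0 counts in hematopoietic mesoderm (edgeR adjusted p = 0.0476). With 3 counts per library as the floor, which covers counting error only, endoderm was at least 10.96-fold higher. All 3 calls were lost with the replicate number as a block (edgeR adjusted p = 0.0559, 0.0646 and 0.0945) and in 5, 6 and 6 of 6 fits with a library omitted. The median log2 fold change of the 35 genes lay between -0.06 and 0.20 in the 6 comparisons, and that of all genes between 0.01 and 0.07.

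The target Hes1 averaged 76.6 ± 18.2, 87.3 ± 23.8, 69.7 ± 10.3 and 35.1 ± 19.1 CPM in YFP+ cardiac mesoderm, YFP- cardiac mesoderm, endoderm and hematopoietic mesoderm, and all hematopoietic mesoderm libraries lay below those of the other types. The target Hey1 averaged 37.7 ± 15.3, 41.1 ± 20.9, 21.2 ± 6.15 and 6.596 ± 8.31 CPM in the same order. Neither passed in any comparison, with edgeR adjusted p of 0.199 and 0.262 between the YFP+ fraction and hematopoietic mesoderm, and 0.179 and 0.273 for the YFP- fraction. Lfng, a glycosyltransferase that changes which ligands a receptor answers, averaged 6.62 ± 9.27 and 7.79 ± 0.29 CPM in the cardiac mesoderm fractions and 0.673 ± 0.592 and 0.660 ± 0.807 in endoderm and hematopoietic mesoderm, and passed in none. Rbpj was even, at 55.4 ± 14.9, 48.5 ± 12.2, 62.2 ± 7.84 and 50.7 ± 17.3 CPM.

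The genes whose log2 CPM ran most alike each member over the 12 libraries were sought among 10372 genes that reached 10 CPM in a type. For Dll1 these were the transcription factor genes Meis1 (Pearson r = 0.962) and Foxc1 (0.960) and the Nodal antagonist Lefty2 (0.945). For Dll3 they were Lefty2 (0.977), the ephrin ligand Efna3 (0.973) and the cytochrome P450 gene Cyp4f15 (0.965). Lefty2 averaged 93.5, 88.9, 16.7 and 0.462 CPM in YFP+ cardiac mesoderm, YFP- cardiac mesoderm, endoderm and hematopoietic mesoderm, the order seen for both ligands. Dll1 and Dll3 themselves correlated at 0.923, the highest of the 21 pairs among the 7 members, and the lowest was Notch2 with Dll3 at -0.690.

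For Notch1 the most alike genes were Rbms1 (0.976), Pmp22 (0.961) and Trim71 (0.954), of which Pmp22, known as a myelin protein, averaged 285 and 310 CPM in the cardiac mesoderm fractions, 18.8 in endoderm and 232 in hematopoietic mesoderm. For Notch2 they were Crlf3 (0.941), Cand1 (0.940) and Sh3bgrl3 (0.937), and for Notch3 Nars2 (0.897), Afg3l2 (0.896) and Ppp3ca (0.845). For Notch4 they were Kidins220 (0.939), Apbb2 (0.935) and Zfp69 (0.925), and for Jag1 Snhg11 (0.938), Pappa (0.920) and the growth factor gene Fgf5 (0.905). The 12 points are 4 types of 3 libraries, so these values describe mostly the differences between types and, for Notch4 and Jag1, the spread between hematopoietic mesoderm libraries.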

How the data were processed

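Per the labels' protocols, RNA was isolated with the Agilent Absolutely RNA nanoprep kit and amplified with NuGEN kits for very small inputs. The authors deposited unnormalized counts per gene (38924 Ensembl mouse genes with 5 summary categories). The submitters' processing notes name STAR 2.5.0a, Picard, HTSeq 0.6.0, DESeq2 and mm10. The annotation and the strand setting are not given in the sources used here. Genes took 18.3% to 21.5% of the tallied reads, and the summary categories were left out of library sizes and tests.

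Symbols were matched for 37607 genes. Counts were analysed with edgeR 4.0.16 (limma 3.58.1, R 4.3.3): TMM scaling, the default expression filter (14170 genes kept), 1 coefficient per cell type over all 12 libraries (8 residual degrees of freedom) and two-sided quasi-likelihood tests of the 6 pairs of types. Benjamini-Hochberg adjustment ran over all genes tested, with a threshold of 0.05. Standard errors derive from the log2 fold change and the F statistic. CPM are TMM-scaled, exon lengths are from GENCODE (build GRCm38), and the prior count for log2 CPM was 2. Where a type held 1 to 3 counts in a library, ratios are of pooled levels with an exact 95% interval. These intervals and the floors reflect counting error alone, because amplification without molecular identifiers does not yield independent molecules. The procedure was tested on simulated data.

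All 9 members are named. Of the other pathway genes, those that passed a comparison and Hes1, Hey1, Lfng, Rbpj and Mib1 are named, and the 3 genes with the highest correlation to each member, predicted genes and pseudogenes left out. The members and lists were chosen with earlier results of these data known.

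Alternatives were a replicate block, RLE scaling, removal of the expression filter or a minimum mean of 5 CPM in its place, DESeq2 1.42.0, a fit to 2 types only, limma voom with quality weights, and omission of single libraries. The same replicate numbers occur in all 4 types, and same-numbered files carry a common stamp whose meaning is not stated, so the numbers were treated as a possible pairing. Deviations of same-numbered libraries from their type means correlated across genes at -0.0177 to 0.0319 (mean 0.0139, 18 pairs).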

Additional observations from a re-analysis of the deposited data

How the results depend on the processing

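Counts of members that passed are given out of 7. Between the cardiac mesoderm fractions the count was 0 in every fit. Of all genes, 0 to 115 were called there, the most by DESeq2. For the YFP+ fraction against endoderm (1 as reported), it was 3 with DESeq2 (Notch1, Dll1 and Dll3), 2 with only the 2 types compared (Notch1 and Notch4) and 4 with limma voom and quality weights (Notch1, Notch4, Dll1 and Dll3), and 0 to 1 when 1 library was left out. Of all genes, DESeq2 called 6.51%, the fit to 2 types 1063 of 12845, voom 7.97% and the fits without a library 71 to 159 genes. For the YFP- fraction against endoderm (1), the member count was 3 with only the 2 types (Notch1, Notch2 and Jag1), 3 with voom (Notch1, Notch2 and Dll1) and 0 to 1 when 1 library was left out. These settings called 1360 of 13472, 12.8% and 69 to 100 of all genes. For the YFP+ fraction against hematopoietic mesoderm (2), the member count was 4 with no expression filter (Notch2 and Notch4 added), 3 with DESeq2 and 3 with a minimum mean of 5 CPM (Notch2 added in both), 1 with only the 2 types (Dll1), 0 with voom and 2 to 3 when 1 library was left out. In that order, these settings called 308 of 23650, 10.6%, 317 of 11040, 13 of 10773, 0.127% and 106 to 426 of all genes. For the YFP- fraction against hematopoietic mesoderm (2), the member count was 3 with DESeq2 (Notch2 added), 1 with the replicate block, 1 with only the 2 types, 0 with voom and 1 to 2 when 1 library was left out. In that order, these settings called 7.63%, 31 of 14170, 10 of 11440, 0.67% and 16 to 247 of all genes. Between endoderm and hematopoietic mesoderm (4), the member count was 2 with voom (Notch1 and Notch2) and 2 to 5 when 1 library was left out. Voom called 8.65% of all genes there, and the fits without a library 180 to 976 genes. Where an alternative left out libraries, fewer samples were fitted, and for the other settings the cause was not tested.

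The replicate block changed no call of a member beside that of Dll3 in the YFP- fraction against hematopoietic mesoderm. Over all fits of single members, results that passed kept their call 108 times and lost it 22 times, and those that did not pass kept their side 365 times, crossed the threshold 19 times and changed sign without passing in either fit 30 times. No result that passed changed sign. Over the settings that used all libraries, the genes called among all those tested ran from 0 to 115, 178 to 1130, 143 to 1812, 13 to 1505, 10 to 1081 and 545 to 1903 in the 6 comparisons, in the order above. Shares computed per read rather than per kilobase moved by more than 1 SD in 8 of 36 cases. Other pathway genes, for which the alternatives were added after seeing the data, numbered 0 to 5 between endoderm and hematopoietic mesoderm (3 as reported). With 3 libraries a type, members under a few counts could not be compared.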
